A study of Saccharomyces cerevisiae with 24 samples.

Results

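A set of 8 intron-containing yeast genes, whose products act on RNA, was followed through every ChIP-chip column of the series. They were chosen by name, from a list of open reading frame identifiers, with earlier results of these data known. They are the snRNP core genes LSM2 (YBL026W), LSM7 (YNL147W) and SMD2 (YLR275W), the cap-binding gene STO1 (YMR125W), the mRNA export gene MTR2 (YKL186C), the nonsense-mediated decay gene NMD2 (YHR077C), the RNase P and MRP gene POP8 (YBL018C) and PSP2 (YML017W). All 8 were measured, out of 5674 nuclear protein-coding genes on the array.

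Chromatin immunoprecipitation with hybridisation to spotted open reading frames recorded which genes spliceosome proteins occupied in Saccharomyces cerevisiae. Each tagged factor carried its epitope tag at the C-terminus, at its own locus. The 12 profiles of unperturbed cells covered Prp40-9myc, BBP-3HA, Mud2-13myc, Lea1-13myc, Prp11-13myc, Prp5-9myc, Prp2-13myc, Brr2-13myc, Prp19-9myc, Sub2-3HA, Spt5-9myc and RNA polymerase II, for which the sample title names no tag. All were grown in rich medium to an optical density of 0.6, except that neither medium nor density is stated for BBP.

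The other 12 columns held mutants, treatments and their controls. Prp40-9myc was followed in a deletion labelled del_cbc, and Prp40-9myc and Mud2-13myc after a shortened fixation with and without RNase, all in rich medium. Prp40-3myc was grown in SC-URA medium as a control, in the spt5_194 strain, and with 6-azauracil at 80 ug/ml for 30 minutes. Lea1-13myc and Brr2-13myc were followed in SUB2 wild-type and sub2-85 strains, a temperature-sensitive allele, grown in SC-HIS medium and held at 37 C for 30 minutes. The sources used here do not say which cap-binding gene was deleted or whether a strain was 1 clone. Each column already combined 2 to 6 replicates, so every group had 1 value per gene, and no spread and no test could be had.

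In budding yeast, splicing begins while the gene is still being transcribed. The U1 snRNP meets the 5' splice site first, BBP and Mud2 mark the branch point, the U2 snRNP replaces them there, and the tri-snRNP and the Prp19 complex complete an active spliceosome. A factor bound to nascent RNA can be crosslinked to the DNA of the gene, which ChIP detects. Several of the genes described here therefore code for parts of the machinery, or of its downstream pathways, that their own transcripts must pass through. Sm proteins form a ring on the U1, U2, U4 and U5 snRNAs. The related Lsm proteins form one ring on the U6 snRNA and another on mRNAs bound for decay.

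A value is the deposited log2 ratio of immunoprecipitate to whole-cell extract, the likely direction, at the same spot. Values of at least 1, a ratio of 2-fold, were counted as high, and the rank of a value is the percent of all genes at or below it in that column. Ranks are given because the robust SD over all genes ran from 0.09 to 0.69 between columns, while column medians lay between -0.14 and 0.05. Values stop at plus or minus 6.64, a 100-fold ratio. In 3 pairs of columns Pearson's r over all probes was below -0.3, and the 5 columns in them were treated as unsettled in direction. Such an r does not say which column of a pair is turned, or that either is. The column of 6-azauracil opposed the Mud2 profile (-0.34), and the Mud2 column with RNase opposed both spt5_194 (-0.36) and wild-type SUB2 Lea1 (-0.32). By Spearman's rho the first pair stood at -0.40, and the others at 0.05 and 0.04, so these 2 pairs were not opposed by rank. These columns were read as deposited, and counts with a turned sign are given where they differ.

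The first comparison asked which factors occupied the 8 genes in unperturbed cells. Prp40, a protein of the U1 snRNP, ranked high on every one of them. All 8 values were above zero and all 8 ranked above 90, from 0.41 for PSP2 to 1.48 for POP8, with a median of 1.05 against -0.05 over all genes. POP8, LSM2, LSM7 and MTR2 were at or above 1 (4 of 8), where 3.39% of all genes were. STO1 at 0.98 lay just under that mark. After quantile normalisation of all columns the count was 2 of 8, and a different unperturbed Prp40 column, taken after shortened fixation, gave 6 of 8 beside 4.92% of genes. The Prp40-3myc control in SC-URA medium had 0 of 8 at or above 1, against 0.952% of genes, and its values ran from -0.13 for LSM2 to 0.29 for STO1. By rank, 7 of 8 were above 90 after shortened fixation. In the Prp40-3myc control 1 of 8 was, STO1, and LSM2 ranked 28.6.

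Mud2, which sits at the branch point with BBP, gave a higher median than Prp40 as deposited and a lower one after quantile normalisation. The deposited median over the 8 genes was 1.73, and the normalised ones were 0.67 for Mud2 and 0.90 for Prp40. As deposited, 5 of 8 genes were at or above 1, beside 12% of all genes in this wide column. LSM2, SMD2, STO1 and LSM7 had between 2.05 and 2.91, whereas MTR2 had 0.54, NMD2 0.41 and PSP2 -0.34. With the sign of this column turned the count is 0 of 8, and quantile normalised it is 2 of 8. BBP had 0 of 8 at or above 1, like 1.04% of genes at or above it, yet 4 of the 8 genes ranked above 90, led by LSM7 at 0.68. PSP2 was at the other end for BBP, with -0.85 at rank 0.775.

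The U2 snRNP protein Lea1 had 8 of 8 values above zero, between 0.23 for LSM7 and 0.78 for STO1, and none at or above 1 (3.28% of genes were). Prp11, another U2 protein, had a median of 0.10 and a highest value of 0.33, for POP8, with 1.08% of all genes at or above 1. Prp5, an ATPase needed for U2 snRNP addition, had 7 of 8 above zero and a highest value of 0.50, for LSM7, where 1.24% of genes were at or above 1. For these 3 factors the 8 genes lay mostly above the middle of the genome and below the 2-fold mark.

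For later factors and transcription proteins, between 0 and 2 of the 8 genes were at or above 1. Prp2, the ATPase that acts before the first catalytic step, had 2 of 8 at or above 1, LSM2 at 4.78 and STO1 at 1.15, where 3.81% of genes were. The U5 helicase Brr2 had 1 of 8, PSP2 at 4.54, beside 3.1% of genes, and its median over the 8 genes was -0.10. The Prp2 and Brr2 columns also held the most genes at the limit of the scale among the 12 profiles, 27 and 28. Prp19 had 0 of 8 (2.13% of genes), with NMD2 highest at 0.77. By rank 3 of 8 were above 90 for Prp19, namely NMD2, LSM7 and STO1. Sub2, a helicase of splicing and export, had 0 of 8 against 4.2% of genes. Spt5, an elongation factor, had 1 of 8, LSM7 at 1.23, against 6.79%, and 7 of 8 values above zero with a median of 0.34. RNA polymerase II had 0 of 8 against 8.51% of genes, with MTR2 highest at 0.73 and PSP2 lowest at -0.29, so none of the 8 genes stood at the 2-fold mark in the polymerase column. SMD2 and NMD2 ranked 34.5 and 36.6 for the polymerase and 94.5 and 94.6 for Prp40.

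**Figure D1:**
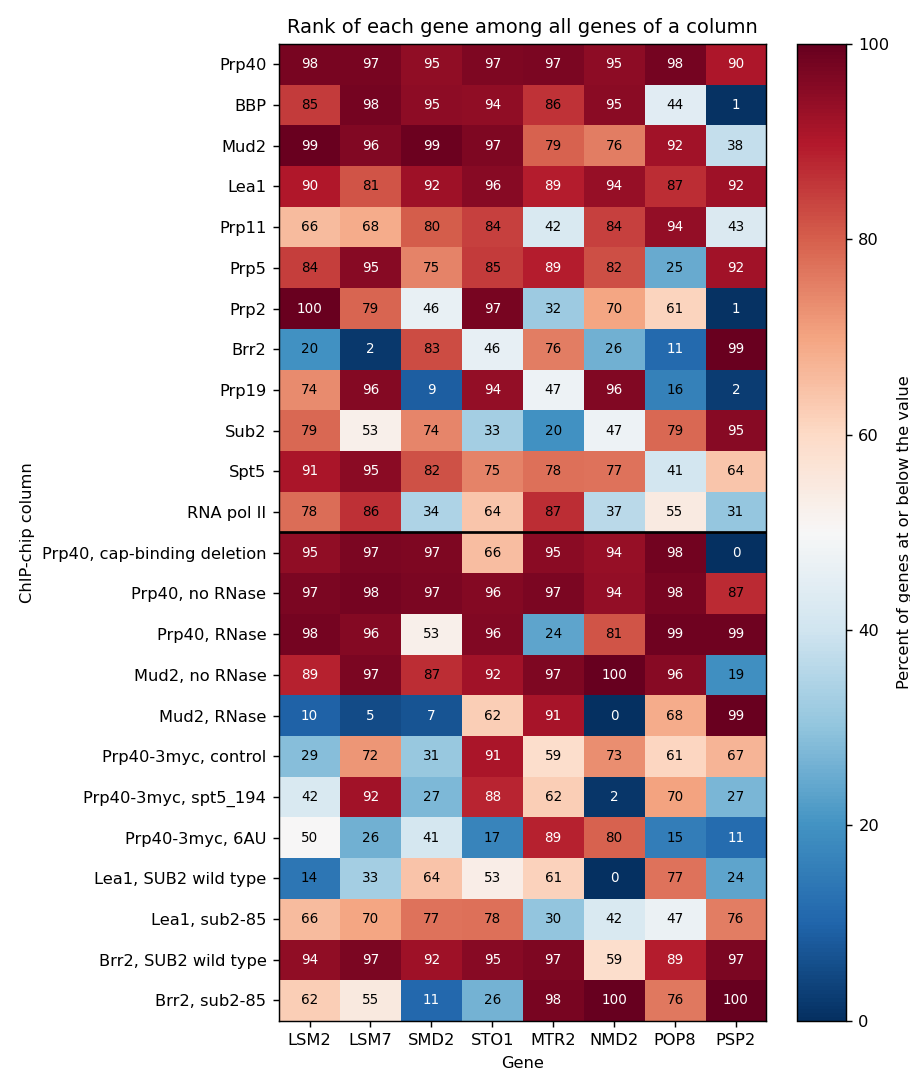
Rank of each of the 8 genes (columns of the grid) among all genes in each of the 24 ChIP-chip columns (rows), as the percent of genes at or below its value. The Prp40 row is above 90 for all 8 genes, while the PSP2 column turns from 99.3 for Brr2 to 0.705 for Prp2. The black line separates the 12 profiles from mutants, treatments and controls.

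Genes of the same complexes and pathways served as partners. That they lack an intron is textbook background and was not checked against an exon table. They were 10 other Sm and Lsm genes, NAM7 and UPF3 of nonsense-mediated decay, CBC2 of the cap-binding complex, 4 mRNA export genes, 10 other RNase P and MRP protein genes, and SBP1 and SCD6, which like PSP2 code for proteins with RGG motifs. For Prp40, 0 of 29 partners were at or above 1 and their median was -0.07. Only 2 of the 29 ranked above 90, POP3 at 0.80 and NAB2 at 0.61. The Sm and Lsm partners ran from -0.30 for LSM8 to 0.25 for SMX3, all below SMD2 at 0.68, LSM7 at 1.21 and LSM2 at 1.26. CBC2 stood at -0.44 where STO1 had 0.98, and MEX67, whose product pairs with Mtr2, at 0.13 where MTR2 had 1.13. UPF3 had -0.31 and NAM7 -0.16 against 0.69 for NMD2, and 9 of the 10 RNase P and MRP partners were below zero against 1.48 for POP8. For RNA polymerase II the partners' median was 0.21 and that of the 8 intron genes 0.07. For Mud2, 5 of 29 partners were at or above 1, beside 12% of all genes. For Lea1 and BBP 0 of 29 were, beside 3.28% and 1.04% of all genes.

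**Figure D2:**
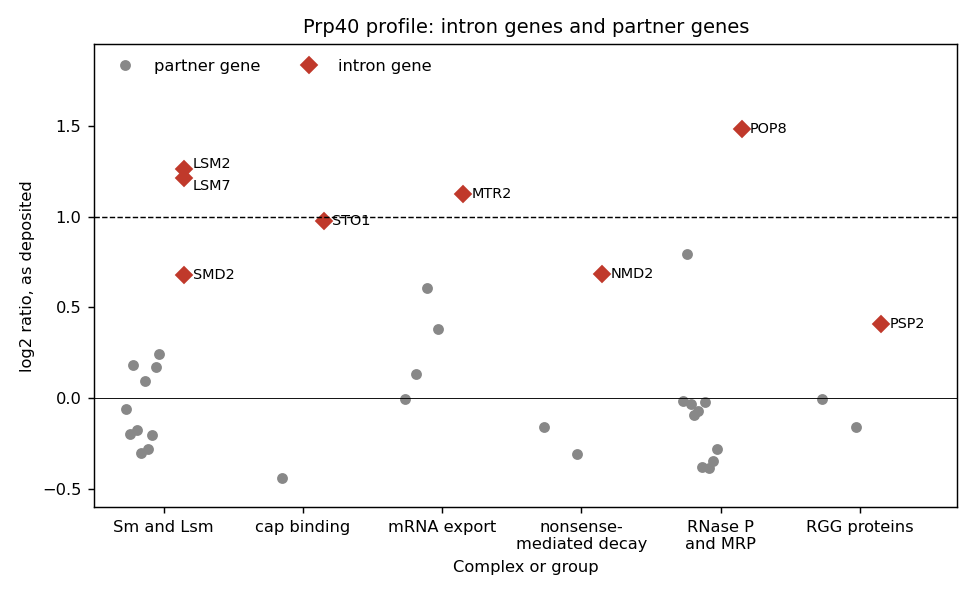
Prp40 profile of the 8 intron genes (diamonds, named) and 29 partner genes (circles) by complex or group, as deposited log2 ratios. In each group the intron genes lie above all partners, and the dashed line marks a log2 ratio of 1.

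LSM2 codes for an Lsm ring subunit shared by the U6 and the decay ring. Its profile had Prp40 at 1.26 (rank 97.5), BBP at 0.22 and Mud2 at 2.91 (rank 99.4). Lea1 stood at 0.41, Prp11 at 0.05 and Prp5 at 0.19. These values place Prp40 and Mud2 high on the gene and the U2 proteins lower. The highest value of the gene was 4.78 for Prp2, at rank 99.5, where Brr2 had -0.22 and Prp19 0.24. Sub2, Spt5 and RNA polymerase II had 0.43, 0.80 and 0.41. The neighbour on the left is RPL19B, a ribosomal protein gene with an intron of its own and 2.09 for Prp40, and LSM2 exceeded both neighbours in 4 of 24 columns. Prp2 was one of these, although both neighbours, RPL19B at 1.04 and RRN10 at 1.19, were also high there. What RPL19B contributes to the LSM2 values was not tested.

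LSM7, for another subunit shared by both Lsm rings, had 7 of 24 values at or above 1, the most of the 8 genes. Prp40 stood at 1.21, BBP at 0.68 and Mud2 at 2.05, with ranks of 97.4, 97.9 and 96.4. Lea1 had 0.23, Prp11 0.06 and Prp5 0.50. Prp2 stood at 0.38, Prp19 at 0.72 and Brr2 at -0.70, rank 1.60, so that Brr2 was among its lowest genes at a place where the early factors were high. Spt5 had 1.23, RNA polymerase II 0.71 and Sub2 0.04. Its neighbours ALF1 and YNL146W were below zero for Prp40, at -0.35 and -0.27, and LSM7 was above both in 18 of 24 columns.

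SMD2 codes for an Sm ring protein. It had 0.68 for Prp40, 0.40 for BBP and 2.70 for Mud2 (rank 99.0), followed by 0.49 for Lea1, 0.13 for Prp11 and 0.11 for Prp5. Prp2 was at -0.01, Brr2 at 0.26 and Prp19 at -0.36. Among the 12 profiles, Prp40, BBP, Mud2 and Lea1 ranked above 90 on this gene. The transcription proteins were moderate, with Sub2 at 0.34, Spt5 at 0.45 and RNA polymerase II at -0.24. The neighbours MCM5 and DBP9 had -0.12 and 0.05 for Prp40 and 0.44 and 0.53 for Mud2. DBP9 was at the limit of the scale for Prp19, at 6.64, with SMD2 next to it at -0.36.

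STO1 codes for the large subunit of the nuclear cap-binding complex, which binds the capped end of new transcripts and helps the U1 snRNP. Prp40 stood at 0.98, BBP at 0.37, Mud2 at 2.11 and Lea1 at 0.78, and all of these ranked above 94. Prp11 had 0.17 and Prp5 0.20. Prp2 at 1.15 and Prp19 at 0.60 were high as well, whereas Brr2 had -0.04. RNA polymerase II had 0.14, Spt5 0.28 and Sub2 -0.24. STO1 ranked above 90 in 6 of the 12 profiles, as did LSM7, the most of the 8 genes. Its neighbours EPO1 and DLT1 had -0.04 and -0.24 for Prp40, but DLT1 had 1.89 for Mud2.

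MTR2 codes for the partner of the export receptor Mex67. Its Prp40 value was 1.13, at rank 97.2, and no other profile of this gene ranked above 90. BBP had 0.23, Mud2 0.54, Lea1 0.38, Prp11 -0.05 and Prp5 0.27. Later factors stayed near zero, with Prp2 at -0.17, Brr2 at 0.18 and Prp19 at 0.03. RNA polymerase II stood at 0.73, Spt5 at 0.34 and Sub2 at -0.49. The neighbour ASH1, a gene of mating-type control, had 0.57 for Prp40 and 1.23 for the polymerase, so MTR2 exceeded it for Prp40 and lay below it for the polymerase. On the other side FAT3 had -0.15 and -0.86.

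NMD2 codes for the protein, also called Upf2, that joins Upf1 and Upf3 in nonsense-mediated decay. Its 12 profile values were moderate, from -0.22 for RNA polymerase II to 0.77 for Prp19, and none was at or above 1. Prp40 stood at 0.69, Lea1 at 0.57, BBP and Mud2 at 0.41 each, Spt5 at 0.34, Prp2 at 0.26, Prp5 at 0.17 and Prp11 at 0.16. Sub2 had -0.03 and Brr2 -0.17. Outside the profiles the gene took extreme values. It was at 4.05 for Mud2 without RNase, at -6.64, the limit of the scale, for Lea1 in SUB2 wild type, and at 2.47 for Brr2 in sub2-85. It was listed at exactly 0 for Brr2 in SUB2 wild type and for Lea1 in sub2-85, as were 7 genes in each of these columns. The value for spt5_194, -2.21, equals the limit divided by the 3 combined replicates within a log2 tolerance of 0.00015, as did 6 genes of that column, all negative. The neighbours PTC7 and YHR078W lay between -0.23 and 0.50 in the 6 columns just named.

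POP8 codes for a small protein subunit shared by RNase P, which trims tRNA precursors, and RNase MRP, which cuts ribosomal RNA precursors. It had the highest Prp40 value of the 8 genes, 1.48 at rank 97.9, and 1.41 for Mud2 and 0.33 for Prp11, which ranked 92.1 and 94.1. BBP at -0.03 and Prp5 at -0.14 were below zero, and Lea1 had 0.32. Prp2 had 0.15, Brr2 -0.31 and Prp19 -0.24. RNA polymerase II stood at 0.01, Spt5 at -0.16 and Sub2 at 0.42, so the highest Prp40 level went with a polymerase value near the middle of the genome (rank 54.6). Its neighbours APN2 and PEP1 had -0.09 and 0.21 for Prp40, and APN2 had 1.14 for Mud2.

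PSP2 codes for an asparagine-rich RNA-binding protein. Prp40 at 0.41, Lea1 at 0.50, Prp5 at 0.33 and Sub2 at 0.98 ranked above 90, but its Prp40 level hardly exceeded that of its neighbours YML018C (0.23) and PPZ1 (0.40). BBP had -0.85, Prp2 -1.36 and Prp19 -0.65, all at ranks below 2.5. Mud2 stood at -0.34, Prp11 at -0.05, Spt5 at 0.12 and RNA polymerase II at -0.29. All 3 Brr2 columns were high, with 4.54 in the profile, 1.11 in SUB2 wild type and 2.58 in sub2-85, at ranks of 99.3, 97.1 and 99.6. The neighbours had 0.20 and 0.06, 0.06 and -0.18, and 0.15 and 0.03 in the same columns.

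**Figure D3:**
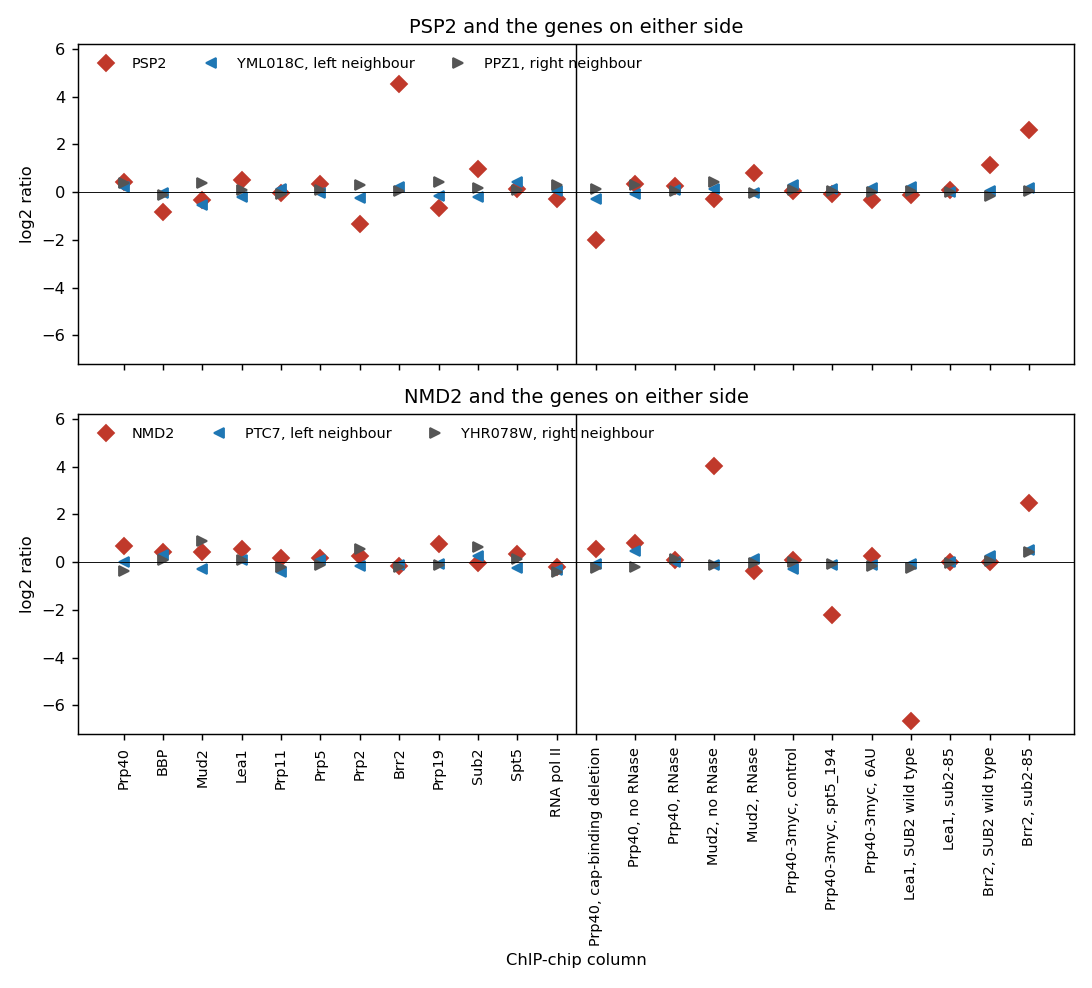
Deposited log2 ratios of PSP2 (top) and NMD2 (bottom), each as diamonds, with the nearest measured gene on either side as triangles, in all 24 columns. The extreme values of both genes, such as 4.54 for PSP2 with Brr2 and -6.64 for NMD2 with Lea1, are not shared by the neighbours. The vertical line separates the 12 profiles from the other columns.

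Likeness was described by Pearson's r of ranks over the 24 columns, which share factors, strains and input DNA. Each gene was set against all genes with 24 values, and the closest 2 are named. LSM2 was closest to NRG1 (0.86) and LSM7 (0.81), and LSM7 to NRG1 (0.86) and MAF1 (0.85). STO1 came closest to VPS74 (0.83) and ARP9 (0.83), SMD2 to SSH1 (0.78) and PPQ1 (0.76), and MTR2 to PHO85 (0.87) and MRP20 (0.81). NMD2 was closest to MOB1 (0.79) and UBC4 (0.76), POP8 to IST1 (0.80) and PRP3 (0.75), and PSP2 to LDO45 (0.73) and ERG24 (0.70). Among the 8 genes themselves, LSM7 and STO1 had 0.73 and LSM2 and NMD2 0.70, while PSP2 had between -0.22 and 0.16 with the others and MTR2 between -0.05 and 0.22.

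The deletion of the cap-binding complex bears on STO1 in particular, because the gene codes for a subunit of that complex. Prp40 on STO1 stood at 0.98 in the unperturbed profile and at -0.01 in the deletion, a difference of -0.98 at rank 0.781 of all changes. Its neighbours did not move in that way, with EPO1 going from -0.04 to 0.12 and DLT1 from -0.24 to -0.19. CBC2, for the small subunit, went from -0.44 to -2.37, a value which no other column came near (the next lowest was -0.76). The gene removed in that strain is not named by the labels. A deleted gene would give little DNA in both channels of the array, and the ratio alone cannot tell this apart from a loss of binding.

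Of the other 7 genes, PSP2 alone differed by 2-fold or more, from 0.41 to -1.99 (-2.40), so 1 of 8 was lower by that much beside 0.763% of all genes. LSM2 went from 1.26 to 0.64, MTR2 from 1.13 to 0.70, LSM7 from 1.21 to 1.06 and NMD2 from 0.69 to 0.54. SMD2 went from 0.68 to 0.99 and POP8 from 1.48 to 1.64. Most kept a high place in the deletion column, with 6 of 8 above rank 90. The median difference was -0.29, against -0.04 over all genes and -0.07 over the partners, of which CBC2 was the only one lower by 2-fold. With the Prp40 column of shortened fixation as the control instead, 3 of 8 were lower by 2-fold, namely PSP2 (-2.32), STO1 (-1.15) and LSM7. The share of all genes lower with this control was not computed. This control had 4.92% of all genes at or above 1, against 3.39% in the standard Prp40 profile.

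RNase treatment asked whether Prp40 and Mud2 need RNA to stay on these genes. Without RNase, Prp40 stood at 2.06 on LSM7, 1.79 on POP8, 1.56 on MTR2 and SMD2, 1.55 on LSM2, 1.15 on STO1, 0.83 on NMD2 and 0.33 on PSP2. With RNase the same genes, in the same order, had 0.17, 0.27, -0.06, 0.01, 0.22, 0.18, 0.08 and 0.26. All 8 were lower, and the highest value with RNase lay below the lowest without it. Differences ran from -1.89 for LSM7 to -0.07 for PSP2, and 5 of 8 genes (LSM7, MTR2, SMD2, POP8 and LSM2) were lower by 2-fold or more, beside 4.79% of all genes. The median difference was -1.42, against 0.10 over all genes and 0.03 over the partners, of which 0 of 29 were lower by 2-fold. A fall needs a high start, and among the 279 genes at or above 1 without RNase 93.9% were lower by 2-fold.

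The RNase column of Prp40 was narrow, with a robust SD over all genes of 0.09. Within it 5 of 8 genes ranked above 90, POP8 at 98.7, PSP2 at 98.6, LSM2 at 97.7, STO1 at 96.2 and LSM7 at 96.0. MTR2, at rank 23.7, and SMD2, at 52.5, did not. Quantile normalisation, which widens this column to the spread of the others, left 1 of 8 lower by 2-fold and turned the differences of LSM2 and POP8 positive.

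For Mud2 without RNase the values were 4.05 on NMD2, 1.25 on LSM7, 1.14 on MTR2, 0.92 on POP8, 0.56 on STO1, 0.42 on LSM2, 0.37 on SMD2 and -0.30 on PSP2. With RNase they were -0.36, -0.16, 0.16, 0.05, 0.04, -0.12, -0.15 and 0.79 in that order. Of the 8 genes 7 were thus lower with RNase, and PSP2 was higher. At 2-fold 2 of 8 were lower, NMD2 (-4.41) and LSM7 (-1.41), beside 3.7% of all genes, and MTR2 followed with -0.98. With the sign of the RNase column turned 3 of 8 were lower by 2-fold, NMD2 (-3.69), MTR2 (-1.30) and LSM7 (-1.08). The share of all genes lower with that sign turned was not computed. PSP2 was higher by 1.08, 1 of 8 beside 1.02% of genes, and 0 of 8 with the sign of the RNase column turned. The median difference was -0.70, against 0.06 over all genes and -0.01 over the partners. Without RNase 3 of 8 genes were at or above 1, beside 3.98% of all genes, and among the 226 such genes 88.9% were lower by 2-fold with RNase. The NMD2 value of 4.05 has no counterpart in the Mud2 profile of standard fixation, where NMD2 stood at 0.41, and PTC7 and YHR078W had -0.10 and -0.13 beside it.

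**Figure D4:**
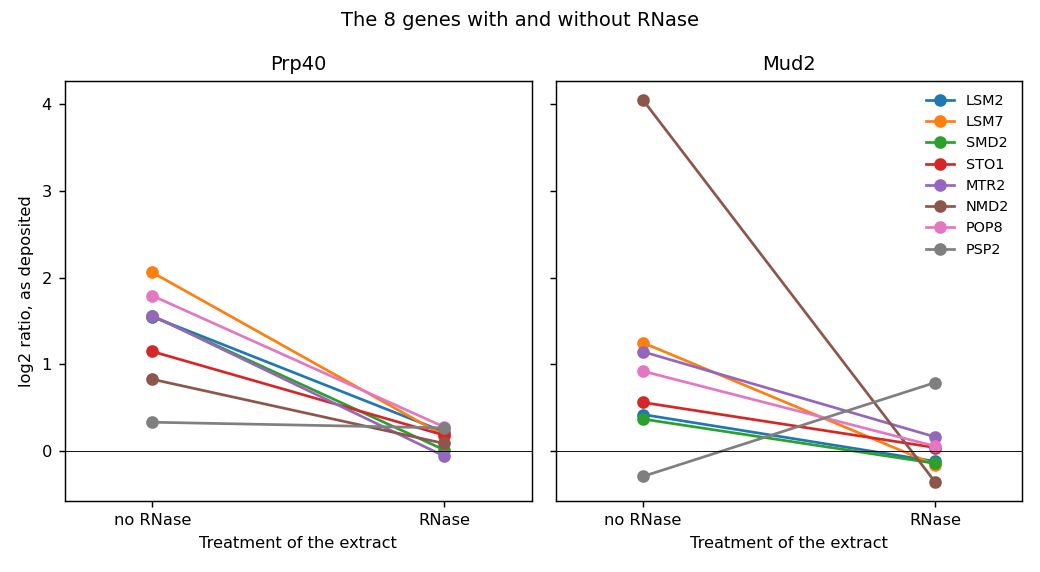
Deposited log2 ratios of the 8 genes (colours) for Prp40 (left) and Mud2 (right) in extracts of lightly fixed cells without and with RNase, 1 value per gene and condition. All 8 lines run downward for Prp40, with values between -0.06 and 0.27 after RNase, and the PSP2 line runs upward for Mud2.

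Transcription elongation was disturbed by the spt5_194 allele and by 6-azauracil, both set against the same Prp40-3myc control column. That control was weak on these genes, with values of 0.29 for STO1, 0.10 for NMD2, 0.09 for LSM7, 0.06 for PSP2, 0.03 for POP8, 0.02 for MTR2, -0.12 for SMD2 and -0.13 for LSM2. In spt5_194, 1 of 8 genes was lower by 2-fold, beside 2.2% of all genes. This was NMD2, from 0.10 to the -2.21 described above. The other 7 differed by between -0.15 for PSP2 and 0.22 for LSM7. After quantile normalisation NMD2 differed by -0.94. With the sign of the spt5_194 column turned NMD2 was instead higher by 2-fold.

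With 6-azauracil 0 of 8 genes were lower by 2-fold, beside 0.705% of all genes. STO1 went from 0.29 to -0.27 (-0.56), PSP2 from 0.06 to -0.36 (-0.41) and POP8 from 0.03 to -0.29 (-0.32). LSM7 had -0.18, SMD2 -0.06 and LSM2 0.01 with the drug. MTR2 went the other way, from 0.02 to 0.37 (0.35), and NMD2 stood at 0.25. The direction of the 6-azauracil column was treated as unsettled, so the directions given for single genes are those of the values as deposited. With the sign of this column turned, 0 of 8 genes were lower and 0 of 8 higher by 2-fold. Differences of single genes with that sign turned were not computed.

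The Sub2 experiment compared sub2-85 with SUB2 wild type after the shift to 37 C. In wild type, Brr2 had a median of 0.73 on the 8 genes, against -0.10 in its rich-medium profile. LSM7 stood at 1.14, PSP2 at 1.11, MTR2 at 0.98, STO1 at 0.79, LSM2 at 0.67, SMD2 at 0.51, POP8 at 0.36 and NMD2 at 0. Of the 8 genes 6 ranked above 90 and 2 of 8 were at or above 1, beside 3.35% of all genes. The rich-medium profile had LSM7 at -0.70, POP8 at -0.31, LSM2 at -0.22, NMD2 at -0.17 and STO1 at -0.04. MTR2 and SMD2 were above zero there, at 0.18 and 0.26, and PSP2 was higher than at 37 C, at 4.54. Medium, temperature and strain all differed between these columns and cannot be told apart.

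In sub2-85, Brr2 had 0.03 on LSM7, -0.24 on STO1, -0.48 on SMD2, 0.10 on LSM2, 0.92 on MTR2, 0.26 on POP8, 2.58 on PSP2 and 2.47 on NMD2. LSM7 differed by -1.11 and STO1 by -1.03, so 2 of 8 were lower by 2-fold beside 2.61% of all genes, with SMD2 next at -0.99. After quantile normalisation 0 of 8 were. A fall needs a high start, and 6 of 8 ranked above 90 in wild type. The share of falls among all genes with such a start was not computed. NMD2 and PSP2 were higher by 2.47 and 1.46, 2 of 8 beside 2.03% of genes, and 1 of 8 once values at exactly 0 are left out. MTR2 and POP8 differed by -0.05 and -0.10. The median difference was -0.34 against 0.01 over all genes. LSM7 ranked 54.9 in the mutant after 97.2 in wild type, and STO1 ranked 26.3 after 95.4.

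Lea1 was below the 2-fold mark on all 8 genes in this experiment, in columns with robust SDs of 0.19 in wild type and 0.12 in sub2-85. By rank, 4 of 8 were above 50 in wild type and 5 of 8 in sub2-85, and 0 of 8 were above 90 in either. In SUB2 wild type Lea1 had 0.16 on POP8, 0.09 on SMD2, 0.08 on MTR2, 0.04 on STO1, -0.06 on LSM7, -0.12 on PSP2, -0.20 on LSM2 and -6.64 on NMD2. None of the 8 was at or above 1, beside 0.441% of all genes. In sub2-85 the values lay between -0.04 for MTR2 and 0.11 for STO1. No gene was lower by 2-fold, where 0.335% of all genes were, and NMD2 was higher by 6.64, 1 of 8 beside 1.08% of genes. That difference joins a value at the limit with a value of exactly 0, and without such values the count is 0 of 8. The other 7 genes differed by between -0.15 for POP8 and 0.27 for LSM2.

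**Figure D5:**
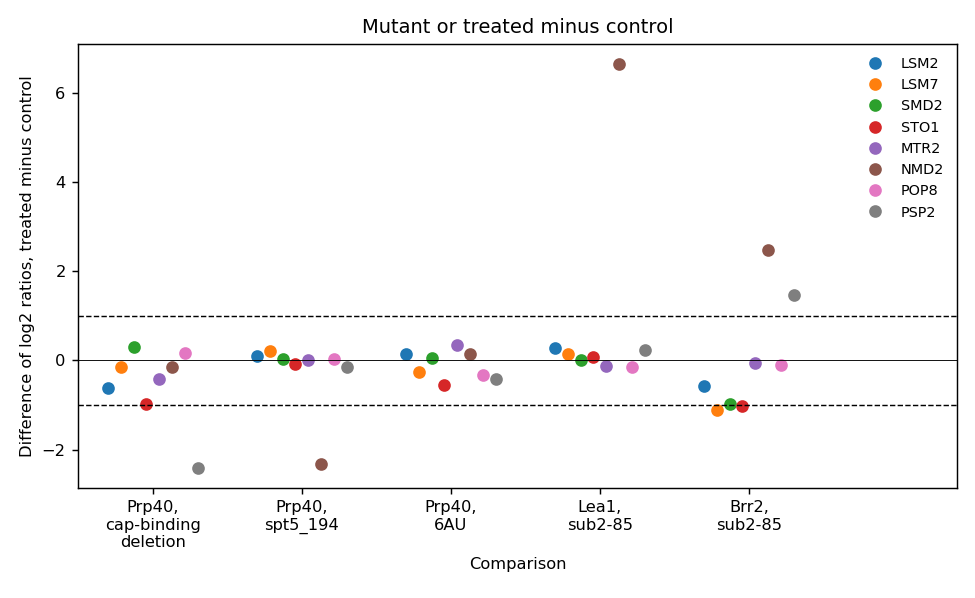
Difference of log2 ratios, mutant or treated minus control, for the 8 genes (colours) in 5 comparisons, 1 value per gene. The dashed lines mark 2-fold. PSP2 at -2.40 stands apart in the cap-binding deletion and NMD2 in spt5_194 (-2.31), in Lea1 (6.64) and in Brr2 (2.47), and the spt5_194 and 6AU comparisons share their control.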

How the data were processed

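The deposited values are 1 log2 ratio per probe and column, for 24 columns and 6284 probes. Per the labels' protocols, DNA of both fractions was amplified by PCR with linkers, dyed with Cy5 or Cy3 (swapped in at least 1 replicate), hybridised to spotted open reading frames, scanned on a GenePix 4000B and combined over replicates in Rosetta Resolver. The sources used here do not give the normalisation, the direction of the ratio or the genome build. A limit at plus or minus 6.64 equals the log2 of 100, which sets the base of the logarithm.

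Probes were matched by identifier to 5674 nuclear protein-coding genes of the RefSeq table for R64, used for names and neighbours. Counts at a log2 of 1, ranks, differences between columns and likeness were computed with Python 3.11.15, pandas 2.3.3 and numpy 2.4.6, and the steps were tested on simulated data. There is 1 sample per group, so no test was made, no replicate could be left out, and the small number of arrays limits precision. Alternatives were quantile normalisation, columns centred on their median, the outer 5% of genes, turned signs, another control, and leaving out values at 0 or at the limit. The last was chosen after seeing the data.

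The 8 genes, the partner lists and the comparisons were chosen with earlier results of these data known. Genes named are the 8, their partners, the nearest measured gene on each side and the 2 genes most alike. Of the listed Sm and Lsm genes, SMX2 and LSM3 had no matched probe. The sources used here do not place the spots within a gene.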

Additional observations from a re-analysis of the deposited data

Results flagged for a closer look

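As deposited, 3 results had opposite signs for 2 factors under the same treatment, with 1 of the 2 past 2-fold. The other of the 2 was small each time, between -0.07 and 0.14. None of these differences was tested, since each rests on 1 column per condition. PSP2 differed with RNase by -0.07 for Prp40 and by 1.08 for Mud2, which puts the Mud2 difference 1.15 above that of Prp40. The direction of the Mud2 column with RNase was treated as unsettled. With its sign turned PSP2 differed by -0.49, in the same direction as for Prp40 and under 2-fold. In sub2-85, STO1 differed by -1.03 for Brr2 and by 0.07 for Lea1, a gap of -1.11. LSM7 differed by -1.11 for Brr2 and by 0.14 for Lea1, a gap of -1.25. Lea1 had been at 0.04 on STO1 and at -0.06 on LSM7 in the control. That control column was also treated as unsettled in direction. Robust SDs over all genes were 0.19 in it and 0.12 for Lea1 in sub2-85.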

How the results depend on the processing

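Of the recomputed values, 93 moved by less than 1.5-fold, taken as a ratio for counts and as a difference on the log2 scale for medians and single genes. A further 34 moved by more, and 2 called differences changed sign. The median in spt5_194, 0.02, also crossed zero under quantile normalisation. Quantile normalisation gave counts at or above 1 of 2 for Prp40, 1 for BBP, 2 for Mud2 (median 0.67), 1 for Prp2 and 0 for Spt5. Under it 1 gene was lower by 2-fold for Prp40 with RNase (median -0.15, LSM2 at 0.13 and POP8 at 0.38), 0 in spt5_194 and 0 for Brr2 in sub2-85. It forces narrow columns to the common spread, and the Prp40 RNase column had a robust SD of 0.09. The cause of the other shifts was not tested. Counting the top 5% of genes gave 2 for BBP, 1 for Lea1, 1 for Prp5, 2 for Prp19 and 1 for Sub2. In the outer 5% of changes there were 3 lower and 1 higher in the cap-binding deletion, 4 lower for Mud2 with RNase and 1 lower with 6-azauracil. Turned signs gave 0 for the Mud2 profile, 3 lower and 0 higher for Mud2 with RNase, 0 lower and 1 higher in spt5_194, and 1 lower and 0 higher for Lea1 in sub2-85. The other Prp40 control gave 3 lower in the deletion. Without values at 0 or at the limit, 0 genes were higher for Lea1 and 1 for Brr2 in sub2-85. For counts under quantile normalisation, turned signs, the other control or values left out, the share over all genes was not computed. The top and outer 5% hold about that share of genes by definition. No paired analysis was possible because each group has 1 column.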

Other observations

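Of the 29 partner genes 5 were at or above 1 in the Mud2 profile, beside 12% of all genes, and 0 were for Prp40 or BBP. By rank, 3 of the 29 were above 90 for BBP, LSM1 at 94.9, UPF3 at 91.3 and POP6 at 90.7. Of these LSM1 was not high for Mud2, at -0.29. POP4, for a subunit of RNase P and MRP, had 2.71 for Mud2 and -0.03 for Prp40. UPF3, of nonsense-mediated decay, had 2.42 and -0.31, POP6 1.36 and -0.07, POP7 1.12 and -0.38, and LSM4 1.02 and -0.20. In the Mud2 column taken after shortened fixation 0 of 29 partners were at or above 1, the highest at 0.81. SME1, for an Sm ring protein, was the lowest partner for Prp2, at -3.45, and SMX3, for another, was the highest for RNA polymerase II, at 1.36.

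Values equal to the limit of the scale divided by the number of combined replicates occurred in several columns. At the size of 2.21, within a log2 tolerance of 0.00015, there were 24 genes for Brr2 in SUB2 wild type, 23 for Brr2 in sub2-85 and 10 for the Brr2 profile. Among the 8 genes NMD2 in spt5_194 was the only one at such a value.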
